A study of Mus musculus with 18 samples.

Results

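GABA-A receptors are chloride channels built from several subunits around a central pore, and they carry most fast inhibition in the brain. A typical receptor holds α, β and γ subunits. GABA binds between α and β, and the identity of the α subunit sets where the receptor sits and how it responds to benzodiazepines. Many subunit genes lie in clusters, and Gabra2, Gabrb1, Gabrg1 and Gabra4 form one of these on mouse chromosome 5. The 7 subunit genes described here are these 4 together with Gabra3, Gabra5 and Gabrb2, and they were found by gene name among the 52636 genes of each file. Gabra2 was chosen by its measured difference between genotypes in these same brain libraries, and the others as subunits read beside it. Every brain comparison of knockout and wild type below is therefore a description, and nothing is supported with it.

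Poly-A RNA libraries were made from brain, testis and liver of C57BL/6 mice, all adult males 8 weeks old. Mice were wild type (WT) or PCGF6 KO, a knockout of Pcgf6, whose protein belongs to PRC1.6, a polycomb complex that represses transcription. Each genotype had 3 libraries per tissue, 18 in all, named WT 1 to 3 and KO 4 to 6 after the numbers in the titles. The labels name no substrain, no brain region and no deleted exon, and they do not say whether the genotypes were littermates or whether each library came from its own mouse. The p-values therefore measure only the spread between these libraries. Levels are FPKM, fragments per kilobase of exon scaled by library size, given as mean ± SD over 3 libraries, and differences are log2 KO minus WT on log2(FPKM + 0.1) with their standard error (SE) from limma. A gene is said to be called, to have risen or to have fallen at an adjusted p under 0.05 over all genes tested in that tissue.

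Depth ranged from 18990130 to 23529098 reads per library. Pcgf6 itself was at 4.58, 5.18 and 5.29 FPKM in WT and 3.30, 4.20 and 4.42 in KO brain, at 20.9 ± 1.25 against 9.93 ± 0.59 in testis and at 4.91 ± 0.79 against 1.92 ± 0.65 in liver. KO libraries lay below WT libraries in all 3 tissues and kept reads of the gene. In brain this order was seen in 4.09% of all genes tested, and the KO mean of Pcgf6 was 79.3% of WT. Pcgf6 was not called in any tissue (limma adjusted p = 0.9998 in brain, 0.0638 in testis and 0.485 in liver). Summed over 6 neuron markers, levels were 603 to 662 FPKM in brain, 22.4 to 28.4 in testis and 1.83 to 2.70 in liver. Alb, the main liver transcript, was above 1 FPKM in brain libraries WT 3, KO 5 and KO 6, at 9.55, 4.24 and 5.47. The same 3 libraries held 4.30 to 11.7 FPKM of 6 summed spermatid markers, against 0.471 to 0.705 in the other 3. In liver and testis Gabra2 had no read in any library.

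All coordinates are those of the files (mm10), and they equal GENCODE M21 for the 7 genes. On chromosome 5, Gabrg1 (ENSMUSG00000001260, 70751047 to 70842617), Gabra2 (ENSMUSG00000000560, 70957597 to 71095849) and Gabra4 (ENSMUSG00000029211, 71569749 to 71658308) are on the minus strand. Gabrb1 (ENSMUSG00000029212, 71658113 to 72149037) is on the plus strand. The gap from Gabra2 to Gabrg1 is 115 kb and that to Gabra4 is 474 kb. Gabra4 and Gabrb1 start head to head and share 196 bases, of which 46 are exonic in both. The library kit and labels do not state that strand was used in counting, so reads in those 46 bases cannot be told apart. Gabra3 (ENSMUSG00000031343) lies on chromosome X from 72432681 to 72656848. Gabra5 (ENSMUSG00000055078) lies on chromosome 7 from 57407672 to 57510059. Gabrb2 (ENSMUSG00000007653) lies on chromosome 11 from 42419757 to 42629028. The gene length in the files equals the summed exons of all transcripts for each of the 7 genes, 7640 bases for Gabra2, so FPKM does not separate its 6 annotated transcripts.

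PRC1.6 is recruited mostly to CpG-rich promoters, through partners that bind the E-box CACGTG (MGA with MAX) or the E2F-type motif TCCCGC (E2F6). The bases before the start site of Gabra2 and of its nearest subunit neighbour Gabrg1 are shown because they differ in base composition. Both are 250 bases from RefSeq (GRCm38.p6), 5′ to 3′ on the minus strand and ending at the start site, with every CG dinucleotide in capitals. The Gabra2 window is chr5:71095850-71096099 and the Gabrg1 window is chr5:70842618-70842867.
Gabra2: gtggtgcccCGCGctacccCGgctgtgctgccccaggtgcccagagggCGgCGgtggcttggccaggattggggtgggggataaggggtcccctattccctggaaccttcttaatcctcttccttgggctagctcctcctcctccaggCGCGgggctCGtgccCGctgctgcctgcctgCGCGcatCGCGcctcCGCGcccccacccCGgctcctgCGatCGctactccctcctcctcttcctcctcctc
Gabrg1: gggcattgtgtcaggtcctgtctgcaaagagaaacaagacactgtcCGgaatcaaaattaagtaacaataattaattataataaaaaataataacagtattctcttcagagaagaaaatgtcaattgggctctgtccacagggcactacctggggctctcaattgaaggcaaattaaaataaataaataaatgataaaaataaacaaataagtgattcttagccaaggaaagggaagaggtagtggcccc
The Gabra2 window held 18 CG dinucleotides at 70.0% GC, and the Gabrg1 window held 1 at 35.6% GC. Over 32851 RefSeq windows of this length the medians were 6 CG dinucleotides and 52.4% GC. The windows of Gabra4 (12 at 61.2% GC) and of the upstream start of Gabrb1 (18 at 64.4% GC) were nearer to that of Gabra2. All 7 genes had a RefSeq window, with 11 windows in all because 3 genes have several start sites. Both strands were searched, that is CACGTG, which reads the same on both, and TCCCGC or its complement GCGGGA; no match of one overlapped a match of the other. The E-box was in 0 of the 11 windows and in 6.02% of all windows. The E2F-type motif was in 2 of the 11, at 76 bases before the start of Gabra4 and 24 bases before that of Gabrb1, and in 16.9% of all windows. A match is a description of letters, and no match says only that these letters are not in these 250 bases.

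Gabra2 encodes the α2 subunit, found at synapses on cell bodies and on the axon initial segment and known for its part in the anxiety-relieving action of benzodiazepines. In brain its level was 5.81, 5.94 and 5.67 FPKM in WT libraries and 8.11, 8.43 and 8.60 FPKM in KO libraries. All 3 KO libraries were higher than all 3 WT libraries, and the gap between the groups was wider than the range within either. These values rest on 1182 to 1233 reads per WT library and 1547 to 1769 per KO library. The mean rose from 5.81 ± 0.14 to 8.38 ± 0.25 FPKM, which is 1.44-fold, and the log2 difference was 0.52 (SE 0.06, 95% interval 0.39 to 0.65; limma adjusted p = 0.0274). In brain 15 of 17922 genes tested were called, 0.0837%, and Gabra2 was the 15th by p, so it lies at the edge of the list. The gene just inside it, Rbm46, had an adjusted p of 0.0224, and the one just outside, Fgfbp3, had 0.0539.

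The size of the Gabra2 difference changed little with the settings, while its call changed. Over 16 alternative settings the log2 difference stayed between 0.46 and 0.54, always with KO higher, and it was called in 7 of them. The filter, the trend and the fit over 18 libraries cannot change this difference. All settings reuse the brain libraries on which Gabra2 was chosen, so this is a description only. Leaving out any 1 of the 6 brain libraries ended the call (limma adjusted p from 0.125 to 0.257, log2 difference from 0.50 to 0.54). Leaving out the 3 libraries with Alb above 1 FPKM gave 0.46 with an adjusted p of 0.441, from 2 WT libraries and 1 KO library.

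**Figure D1:**
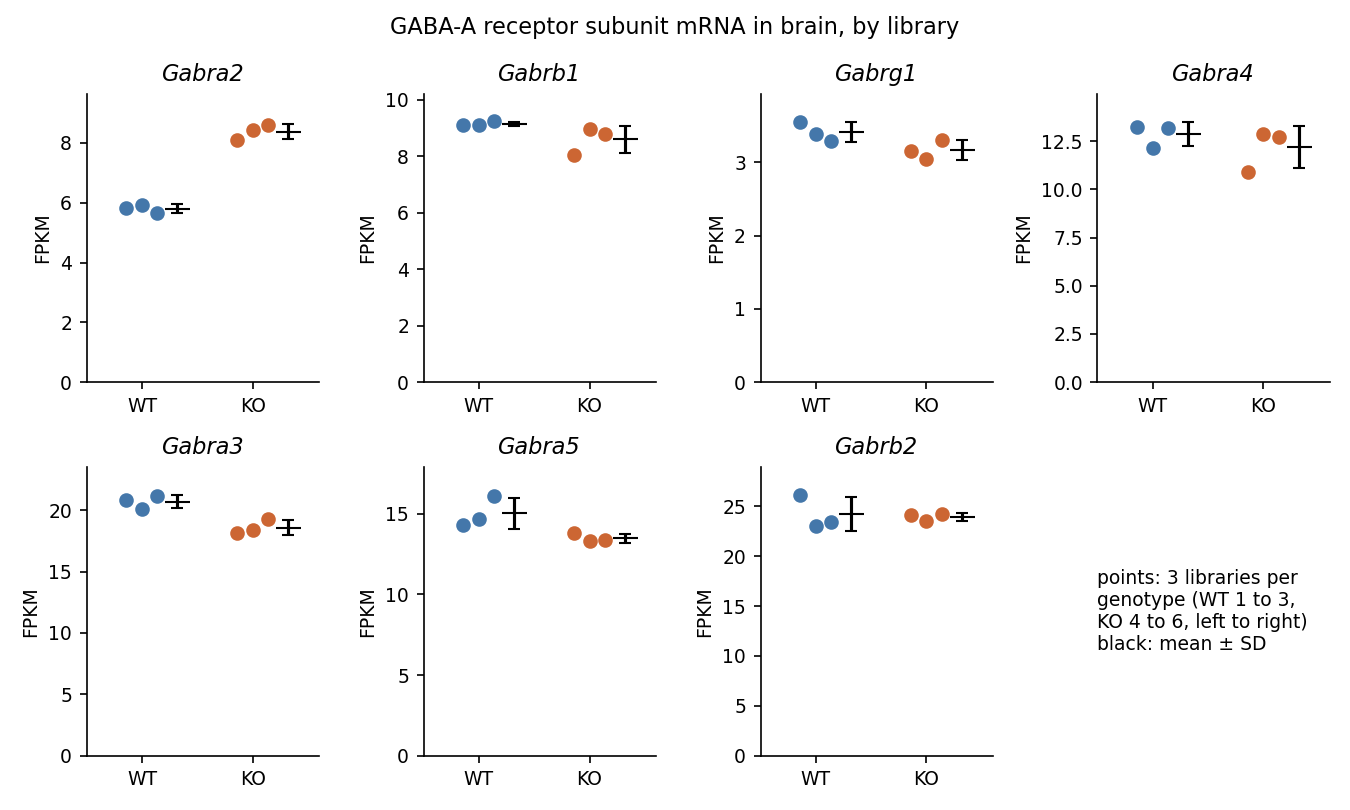
FPKM of the 7 subunit genes in each brain library (y axes start at 0; points are libraries, black marks are mean ± SD over 3 libraries). Gabra2 is the panel in which all KO libraries, 8.11 to 8.60 FPKM, sit above all WT libraries, 5.67 to 5.94.

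Its cluster neighbours showed no such increase. Gabrb1, which encodes a β subunit needed for assembly and GABA binding, was at 9.10, 9.10 and 9.23 FPKM in WT and 8.03, 8.96 and 8.79 in KO brain. The KO libraries lay just below the WT libraries, and the log2 difference was −0.09 (SE 0.06). Gabrg1, which encodes a less abundant γ subunit, was at 3.56, 3.39 and 3.29 FPKM in WT and 3.16, 3.05 and 3.31 in KO, with overlap and a log2 difference of −0.10 (SE 0.08). Gabra4, whose α4 subunit is found mainly outside synapses in thalamus and dentate gyrus, was at 13.2, 12.2 and 13.2 FPKM in WT and 10.9, 12.9 and 12.7 in KO. The groups overlapped, KO 4 was the lowest, and the log2 difference was −0.08 (SE 0.08). All 3 had a limma adjusted p of 1.00.

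Gabra2 therefore made up more of the cluster's mRNA in KO brain. Of the summed FPKM of Gabra2, Gabrb1, Gabrg1 and Gabra4 in the same library, Gabra2 was 18.33, 19.43 and 18.05% in WT and 26.8, 25.3 and 25.7% in KO. The mean was 18.6 ± 0.73% and 25.9 ± 0.79%, a gain of 7.34 percentage points, and 6.65 points when reads replaced FPKM. This share does not depend on library scaling. Per library, the ratio of Gabra2 to Gabrb1 was 0.639, 0.653 and 0.614 in WT and 1.01, 0.942 and 0.979 in KO. The groups were thus apart for this ratio, and the KO mean of 0.977 put Gabra2 close to the level of Gabrb1. The ratio to Gabrg1 went from 1.70 ± 0.06 to 2.64 ± 0.11 and that to Gabra4 from 0.452 ± 0.032 to 0.690 ± 0.046, again without overlap of the libraries.

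**Figure D2:**
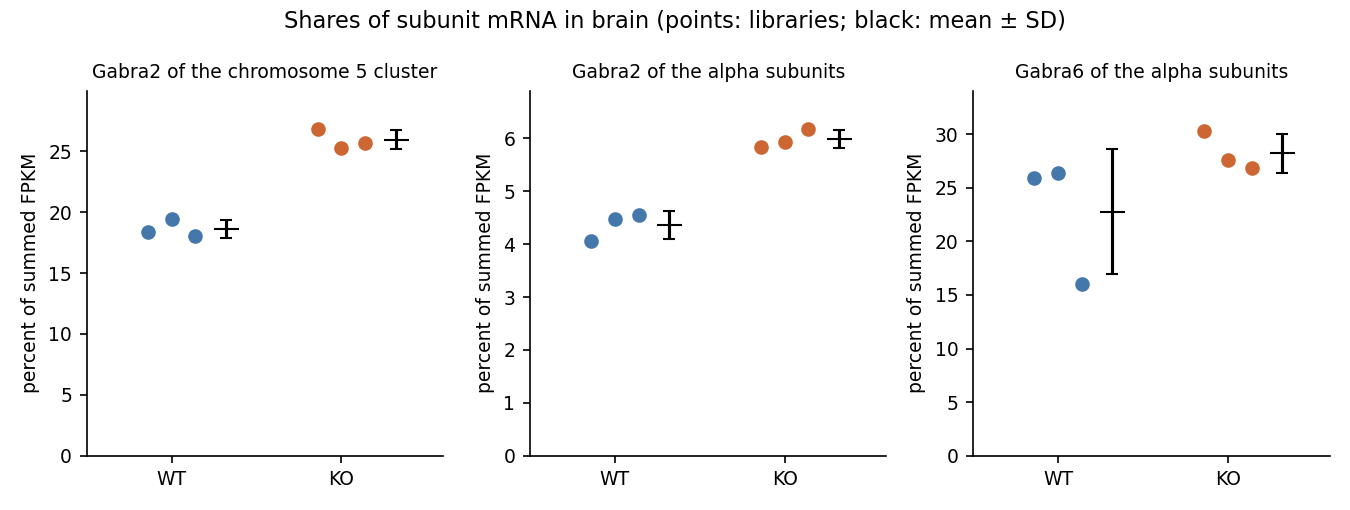
Share of summed FPKM taken by Gabra2 within the chromosome 5 cluster and within the 6 α subunit genes, and by Gabra6 within the α subunit genes, per brain library (y axes start at 0; points are libraries, black marks are mean ± SD over 3 libraries). Gabra2 shares do not overlap between genotypes, while the WT group of Gabra6 is spread by WT 3, at 16.0%.

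The other 3 genes lie on other chromosomes. Gabra3 encodes the α3 subunit, common in brainstem and in the reticular thalamus, and was at 20.8, 20.1 and 21.1 FPKM in WT and 18.1, 18.4 and 19.3 in KO brain. All KO libraries were lower, with a log2 difference of −0.16 (SE 0.05; limma adjusted p = 0.920). Gabra5 encodes the α5 subunit, typical of extrasynaptic receptors in hippocampus, and was at 14.3, 14.7 and 16.1 FPKM in WT and 13.8, 13.3 and 13.3 in KO. Again the groups were apart with KO lower, at −0.15 (SE 0.06; limma adjusted p = 1.00). Gabrb2 encodes the β2 subunit of the most common receptor type, and was at 26.1, 23.0 and 23.5 FPKM in WT and 24.1, 23.5 and 24.2 in KO. WT 1 was the highest library and the groups overlapped, with a difference of −0.01 (SE 0.06) whose sign changed when WT 1 or KO 5 was left out.

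Beside Gabra2, then, 6 of 6 subunits had a lower fitted mean in KO brain, with a median log2 difference of −0.10 and a range from −0.16 to −0.01. None of these 6 was called by limma; Gabra3 and Gabra5 were at an unadjusted p under 0.05 (0.0153 and 0.0341). Over all 17922 genes tested the median was 0.01, 9555 were higher in KO and 800 were at an unadjusted p under 0.05. In Gabra3, Gabra5 and Gabrb1 all KO libraries lay below all WT libraries, as in 4.09% of all genes tested. The opposite order, KO above WT, was seen for Gabra2 and in 4.99% of all genes tested.

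**Figure D3:**
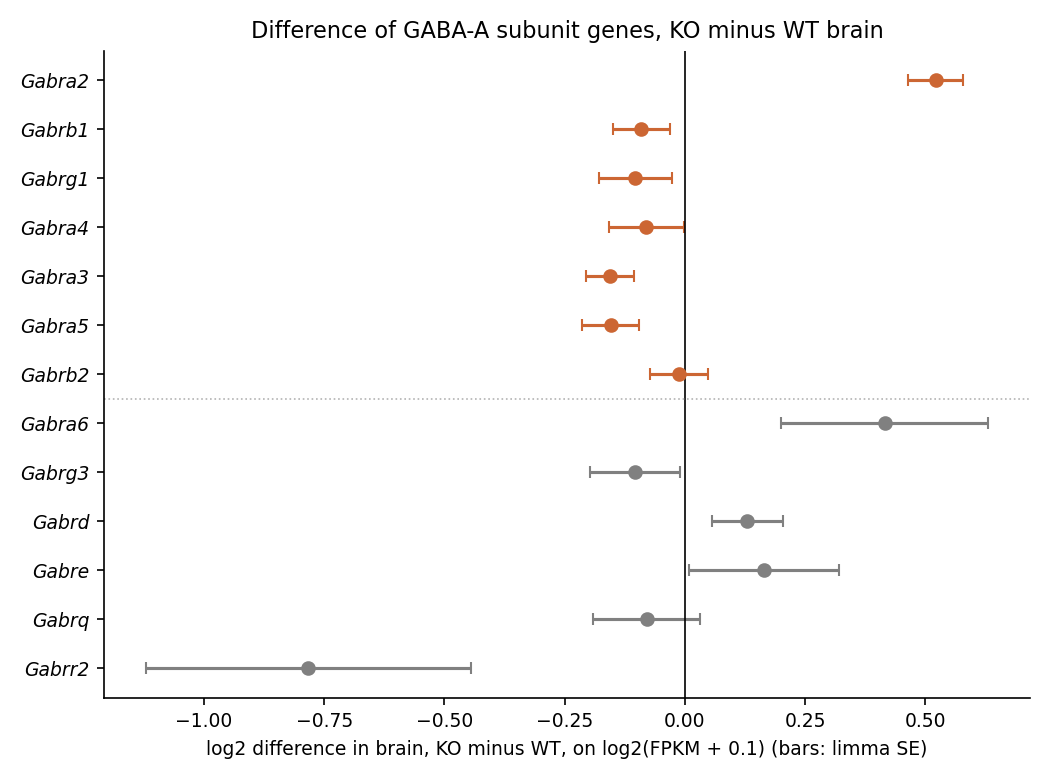
Log2 difference KO minus WT in brain on log2(FPKM + 0.1), with limma SE bars, for the 7 genes (orange, above the dotted line) and 6 of the other subunit genes that passed the read filter (grey). Gabra2 at 0.52 is to the right of 0 by many SE, and the other orange points lie between −0.16 and −0.01.

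Of the 12 other GABA-A subunit genes, 9 passed the filter in brain, 4 were higher and 5 lower in KO, and none was called by limma (0 at an unadjusted p under 0.05), with a median log2 difference of −0.01. Gabra6, which is confined to granule cells of the cerebellum and cochlear nucleus, was at 37.2, 34.9 and 19.9 FPKM in WT and 42.0, 39.2 and 37.4 in KO. Its KO libraries lay just above the WT libraries, as in 4.99% of all genes tested (lowest KO 37.4, highest WT 37.2). WT 3 was far below the other WT libraries (log2 difference 0.42, SE 0.21). Gabrr2, a ρ subunit best known from retina, was at 0.462, 0.508 and 0.887 FPKM in WT and 0.152, 0.402 and 0.423 in KO. KO libraries were lower here, as in 4.09% of all genes tested, at −0.78 (SE 0.34). Gabrp, Gabrr1 and Gabrr3 were below the filter, with means of 0.10 FPKM or less in both genotypes.

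By level in WT brain, Gabra2 was the 11th of the 19 subunit genes, and it remained the 11th in KO brain. Above it, among others, were Gabra6 at 30.7 ± 9.36, Gabrb2 at 24.2 ± 1.69, Gabra3 at 20.7 ± 0.53 and Gabrd at 20.3 ± 1.69 FPKM. The libraries of Gabra3 and Gabrd overlapped, so these neighbours in the order did not differ beyond their spread. Gabra5 at 15.0 ± 0.97, Gabra4 at 12.9 ± 0.62, Gabrb1 at 9.14 ± 0.07, Gabra2 at 5.81 ± 0.14 and Gabrg1 at 3.41 ± 0.13 FPKM followed without overlap. In KO brain Gabra2 at 8.38 ± 0.25 overlapped Gabrb1 at 8.59 ± 0.49. Among all genes tested in brain, the 7 genes ranged in WT from the 49.5th percentile (Gabrg1) to the 90.2nd (Gabrb2), with Gabra2 at the 62.7th.

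Summed over receptor classes, the mRNA pools were close between genotypes. The 6 α subunit genes together gave 133 ± 9.57 FPKM in WT and 140 ± 1.85 in KO. The 3 β genes gave 63.5 ± 3.00 and 61.2 ± 0.91, and the 3 γ genes gave 26.6 ± 0.78 and 26.6 ± 0.55. Within the α pool Gabra2 was 4.05, 4.48 and 4.55% in WT and 5.84, 5.93 and 6.17% in KO, so it stayed a minor α subunit at mRNA level. Gabra3 was 15.6 ± 1.28% and 13.3 ± 0.49% of that pool, and Gabra5 was 11.3 ± 1.52% and 9.63 ± 0.29%. All shares of this pool also move with Gabra6, which was 22.8 ± 5.83% in WT, with WT 3 at 16.0%, and 28.2 ± 1.80% in KO.

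Around Gabra2, 63 genes of the files reached within 2 Mb, and 19 of them passed the filter in brain, 11 higher and 8 lower in KO. Of the 19, 1 was called, against 0.0837% of all genes tested, and it was Gabra2 itself, chosen by this difference. Atp10d, a phospholipid flippase gene whose start is 1108 kb away, had KO libraries above WT libraries, at 0.363 ± 0.021 against 0.564 ± 0.097 FPKM (log2 difference 0.51, SE 0.16; limma adjusted p = 0.920). Commd8 at −0.15 (SE 0.05), Gabrb1 and Fryl at −0.18 (SE 0.07) had KO libraries below WT libraries. Among all genes tested in brain, 4.09% had KO libraries below and 4.99% above WT libraries. Kctd8, a GABA-B receptor accessory subunit gene at 1754 kb on the other side, was at 3.00 ± 0.12 and 3.54 ± 0.47 FPKM with overlap. The remaining 13 genes overlapped between genotypes. The tested genes on either side of Gabra2, Gabrg1 on one side and Gabra4 with Gabrb1 on the other, had negative differences, none of them called.

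**Figure D4:**
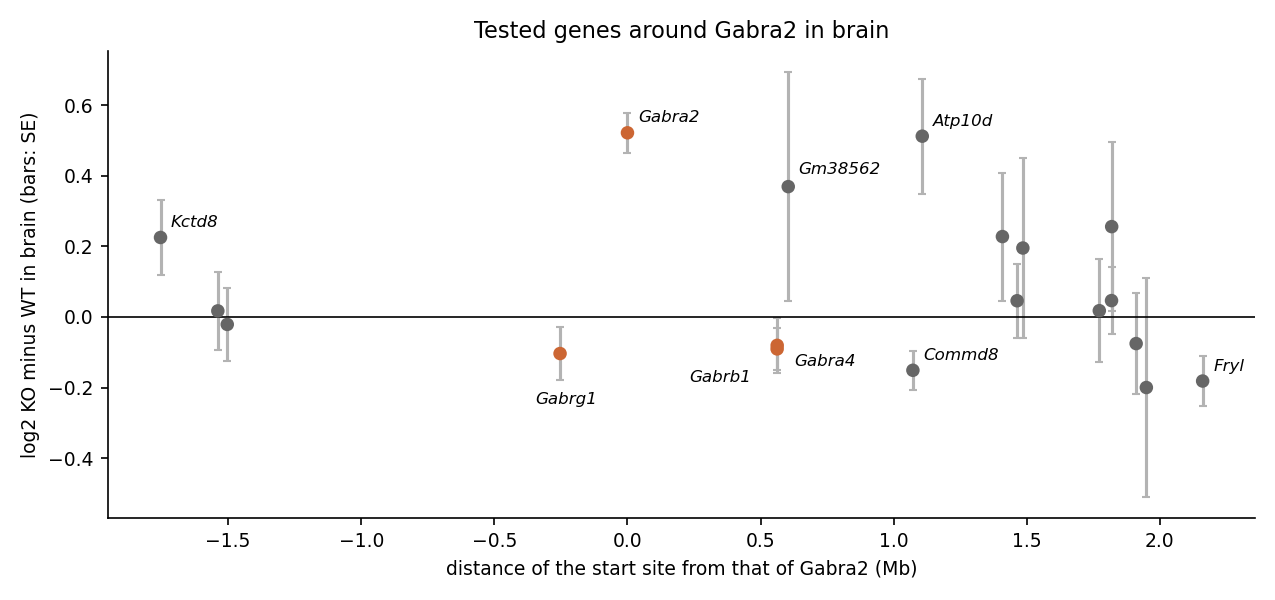
Log2 difference KO minus WT in brain, with limma SE bars, for the 19 tested genes against the distance of their start site from that of Gabra2 in Mb (positive towards higher coordinates; orange, subunit genes of the cluster). Gabra2 at distance 0 stands at 0.52, and Gabrg1, Gabra4 and Gabrb1 lie between −0.10 and −0.08.

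Other parts of the GABA pathway were read from lists. Of 8 genes for GABA synthesis, transport and breakdown, all were tested in brain, all 8 had a lower fitted mean in KO and none was called by limma (2 at an unadjusted p under 0.05), with a median of −0.05. Among all 17922 genes tested in brain, 9555 were higher in KO and 800 were at an unadjusted p under 0.05. Gad1, which makes most GABA, was at 54.6, 51.2 and 50.3 FPKM in WT and 49.1, 44.3 and 40.6 in KO. Its synaptic counterpart Gad2 was at 41.8, 39.5 and 39.0 and at 38.3, 34.8 and 34.3 FPKM. In both, KO libraries lay below WT libraries, an order seen in 4.09% of all genes tested. The vesicular transporter gene Slc32a1 was at 44.4 ± 3.23 and 44.4 ± 5.30. Gad1, Gad2 and Slc32a1 are also among the inhibitory neuron markers below, so those lists are not separate.

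Of 16 genes for receptor trafficking and anchoring, 6 were higher and 10 lower in KO brain, with a median of −0.02, and limma called none (0 at an unadjusted p under 0.05). Gphn, which encodes the scaffold gephyrin that α2-containing receptors bind, was at 16.3 ± 0.76 FPKM in WT and 15.2 ± 0.33 in KO. Its KO libraries were all lower, as in 4.09% of all genes tested. The chloride transporter and GABA-B receptor genes, 4 in number, were all slightly higher in KO with a median of 0.04 and overlapping libraries. Slc12a5, the neuronal chloride exporter, was at 86.7 ± 3.47 and 90.8 ± 4.37 FPKM. Again none was called by limma (0 at an unadjusted p under 0.05).

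Markers of cell types were read from the same libraries. In bulk tissue, fewer cells of a type and less RNA per cell cannot be told apart. Of 12 inhibitory neuron markers 11 were lower in KO and 6 had all KO libraries below WT, an order seen in 4.09% of all genes tested, although their sums overlapped (528 to 637 FPKM in WT and 537 to 648 in KO). All 8 oligodendrocyte markers were higher in KO, with sums of 1053 to 1238 FPKM in WT and 1197 to 1428 in KO. Of 8 cerebellum markers, a list that holds Gabra6, 7 were higher in KO. Their sum was 264 to 281 FPKM in WT 1 and WT 2, 160 in WT 3 and 263 to 325 in KO. All 7 striatum markers were lower in KO, with sums of 267 to 315 FPKM in WT and 256 to 290 in KO. None of the markers in these 4 lists was called by limma, while 5 inhibitory neuron, 2 oligodendrocyte, 1 cerebellum and 0 striatum markers were at an unadjusted p under 0.05. This held for 800 of all 17922 genes tested, of which 9555 were higher in KO. Other brain lists were less uniform. Markers higher in KO were 4 of 6 for neurons, 3 of 6 for excitatory neurons and 5 of 6 for astrocytes. They were 4 of 5 for microglia, 2 of 4 for endothelium and 3 of 5 for hippocampus, again with none called. No marker of these lists was without reads in brain, and their part in the subunit values was not tested. Without WT 3 the log2 difference of Gabra2 was 0.50 and was no longer called (limma adjusted p = 0.126). Gabra2 itself was 5.67 FPKM in WT 3 against 5.81 and 5.94. Leaving out WT 3 does not address marker differences that the KO libraries share.

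The strain label gives C57BL/6 alone, and Gabra2 mRNA is itself known to differ in brain between C57BL/6 substrains. Genes known to vary between C57BL/6 colonies were therefore read beside it. Ide, which encodes insulin-degrading enzyme, fell in KO brain from 11.0 ± 0.59 to 6.91 ± 0.31 FPKM (limma adjusted p = 0.0180), and its neighbour Fgfbp3 was at 4.75 ± 0.12 and 2.88 ± 0.26. Both had all KO libraries below all WT libraries in liver and testis as well, but neither was called there. Ide was at 35.5 ± 2.16 against 22.1 ± 0.62 in liver (limma adjusted p = 0.145) and 49.3 ± 5.10 against 39.0 ± 1.85 in testis (0.871). For Fgfbp3 the limma adjusted p was 0.890 in liver and 0.871 in testis. In brain this order was seen in 4.09% of all genes tested, and the share in liver and testis is not given. Nnt was at 0.036 ± 0.014 FPKM in WT and 0.054 ± 0.018 in KO brain, Entpd4 was near 0, and Wdfy1 overlapped at 5.53 ± 0.23 and 6.06 ± 1.38. Whether colony background has a part in the Gabra2 value was not tested.

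Outside brain the 7 genes were at or near 0. Gabra2 had 0 reads in all 6 testis and all 6 liver libraries. Against a floor of 3 reads per library, which covers counting error only, its WT brain level was at least 361-fold higher than in testis and at least 207-fold higher than in liver. With no reads, the KO effect on Gabra2 could not be measured in these tissues. Gabra5 was the highest of the 7 in testis, at 29 to 39 reads per WT library and 40 to 54 per KO library. Gabra4 (5 to 24 reads) and Gabrb1 (20 to 26) also passed the filter of 10 reads in 3 libraries. Gabra3 (2 to 11 reads), Gabrb2 (0 to 12) and Gabrg1 (0 to 2) did not. In liver only Gabra3 passed, with 11, 31 and 40 reads in WT and 16, 24 and 18 in KO, while Gabra5 and Gabrg1 had 0 and the others 0 to 2 per library.

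**Figure D5:**
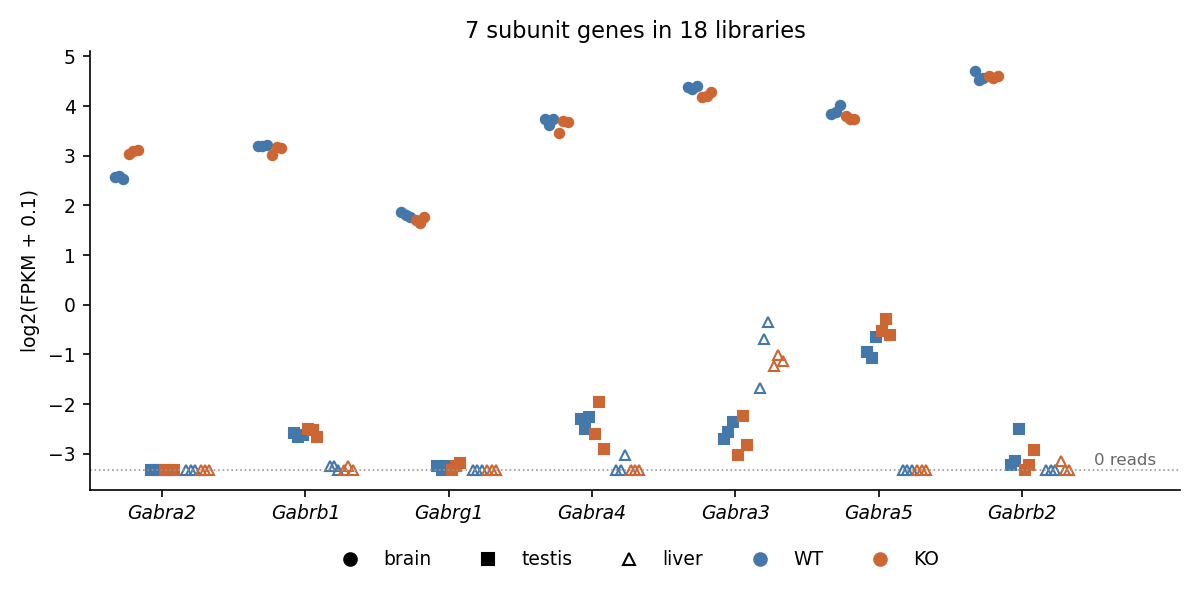
Log2(FPKM + 0.1) of the 7 genes in all 18 libraries, by tissue (symbol shape) and genotype (colour); the dotted line marks 0 reads. All brain points lie far above those of testis and liver, and Gabra2 is on the dotted line in every testis and liver library.

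Testis and liver were not used to choose the genes. In testis 3 of the 7 were tested and none was called by limma, where 1 of 22341 genes was called (0.00448%). Gabra5 was at 0.420, 0.379 and 0.537 FPKM in WT and 0.594, 0.722 and 0.559 in KO testis. The groups were apart with KO higher, as in 7.57% of all genes tested, and the log2 difference was 0.42 (SE 0.19, 95% interval −0.03 to 0.86; limma adjusted p = 0.871). Gabrb1 at 0.06 (SE 0.16) and Gabra4 at −0.13 (SE 0.26) overlapped between genotypes. None of the 3 was at an unadjusted p under 0.05. In liver Gabra3 was at 0.211, 0.516 and 0.684 FPKM in WT and 0.325, 0.394 and 0.354 in KO. The groups overlapped, with a difference of −0.22 (SE 0.35; limma adjusted p = 1.00) where 3 of 14124 genes were called (0.0212%).

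The difference between the brain and testis effects was tested for the 3 genes measured in both, with a genotype by tissue interaction in limma over 12 libraries. It was −0.57 for Gabra5 (SE 0.17, 95% interval −0.94 to −0.20; limma adjusted p = 0.882), −0.15 for Gabrb1 and 0.05 for Gabra4. None of the 3 was called, where 10 of 15962 genes were called (0.0626%). Of the 3, 1 was at an unadjusted p under 0.05, Gabra5. For Gabra5 this compares a level of 15.0 ± 0.97 FPKM in WT brain with 0.445 ± 0.082 in WT testis, a ratio of 33.8.

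Between WT brain and WT testis, 35.9% of 22836 genes tested were called higher in brain. The 7 genes were all among them, but each passed the read filter through brain, so nothing is read from this count. The ratios of WT means were 135 for Gabra4, 147 for Gabrb1, 287 for Gabra3 and 756 for Gabrb2, the last from 15 WT testis reads. FPKM here carries a library size set over all tissues, so these ratios are approximate.

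The genes most like Gabra2 were ranked by Pearson r of log2(FPKM + 0.1) among 17921 other genes, as a description. Over all 18 libraries, which share the contrast of brain with the other tissues, they were Mir344-2, Nkx2-2, Kctd8, Cdr1 and Tenm1, all with r of 0.999. Each is read in brain and at or near 0 elsewhere, as with Nkx2-2 at 1.07 ± 0.11 and 1.41 ± 0.16 FPKM in WT and KO brain and 0 in testis and liver. Among subunits, Gabrg1 came nearest at rank 64 with r of 0.998, and Gabra5 farthest at rank 2472 with 0.928. Over the 6 brain libraries, which share the genotype difference by which Gabra2 drew attention, the nearest were Xlr4c (r 0.996), Obox3-ps7 (0.993), Henmt1 (0.992), Slc25a31 (0.989) and Pcdhgb5 (0.988). Henmt1, which encodes the methyltransferase of piRNA ends, was at 0.255 ± 0.020 FPKM in WT and 1.33 ± 0.14 in KO brain. Slc25a31, the germ cell ADP/ATP carrier gene, was at 0.028 ± 0.019 and 1.59 ± 0.61. The WT brain means of these 5 genes lay between 0.0055 (Xlr4c) and 0.562 FPKM (Pcdhgb5), whereas Gabra2 was at 5.81 there. The 6 other subunits had r from −0.90 (Gabra3) to −0.12 (Gabrb2) over these 6 libraries.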

How the data were processed

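Poly-A RNA libraries (NEBNext Ultra kit, per the labels' protocols) were aligned to mm10 with HISAT2 2.0.5, counted with featureCounts 1.5.0-p3 and tested with DESeq2 1.16.1, per the submitters' processing notes. The authors deposited FPKM per gene and library. Multiplying FPKM by gene length gave whole reads once each library's unit was found (tolerance 0.01 reads), so reads were recovered for depth and filtering. Apart from voom on these recovered reads as an alternative, count tests were not used.

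A gene was tested in a tissue where 3 or more of the 6 libraries held 10 or more reads. The test was limma's (version 3.58.1, R 4.3.3), with its trend option, applied to log2(FPKM + 0.1) and adjusted by Benjamini and Hochberg over all genes. The pseudocount of 0.1 understates changes of low genes. The planned share of the cluster is given without a test because Gabra2 was chosen on brain. Scripts were tested on simulated data. Python 3.11.15 with pandas 2.3.3 and matplotlib 3.10.9 made tables and figures.

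The 7 genes and all lists were chosen with earlier results of these data known. Named genes are the 7, Pcgf6, other GABA-A subunit genes (some genes are not reported here), up to 4 called or lowest-p members per list, tested genes within 2 Mb of Gabra2 and the 5 most alike over 18 and over 6 libraries. Slc32a1 and the library markers were named in addition, after their values were seen. Alternatives were pseudocount, filter, scaling, trend, voom on recovered reads, a fit over 18 libraries, a replicate block and left-out libraries.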

Additional observations from a re-analysis of the deposited data

Results flagged for a closer look

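The fitted KO effect on Gabra5 had opposite signs in brain and testis, and neither effect was called. Among all genes tested, 4.09% had KO libraries below WT libraries in brain and 7.57% had them above in testis. In brain all 3 KO libraries lay below the WT libraries, at 13.5 ± 0.27 against 15.0 ± 0.97 FPKM, and in testis all 3 lay above them, at 0.625 ± 0.086 against 0.445 ± 0.082 FPKM. The log2 effect in brain minus that in testis was −0.57 (SE 0.17; limma adjusted p = 0.882 for the interaction). This difference was not called after adjustment over 15962 genes.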

How the results depend on the processing

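The Gabra2 difference in brain stayed positive under 16 alternatives and lost its call in 9: at 0.52 with no trend (limma adjusted p = 0.0989), 0.52 in 1 fit over 18 libraries (0.0600), 0.46 without the libraries with Alb over 1 FPKM (0.441), and 0.50 to 0.54 with 1 library left out. The subunits called in brain were then 0, and 0 to 0 with 1 library left out. Genes called in brain, 15 at first, were 9 at a mean of at least 1 FPKM, 25 with voom and quality weights, 27 in the fit over 18 libraries, 4 without the Alb libraries and 3 to 11 with 1 library left out. In testis the count of 1 became 0 with no filter, 2 with voom, 6 with quality weights, 36 in the fit over 18 libraries and 0 to 3 with 1 library left out. In liver the count of 3 became 1 at a mean of at least 1 FPKM, 87 in the fit over 18 libraries and 0 to 5 with 1 library left out. The sign turned for Gabrb2 in brain without WT 1 (0.043) or KO 5 (0.00026), Gabra4 in testis without KO 6 (0.079) and Gabra3 in liver without WT 3 (0.061). With 1 library left out, these 3 ranged from −0.049 to 0.043, from −0.39 to 0.079 and from −0.61 to 0.061. The cause of these changes was not tested. Brain and testis were fitted as unpaired by plan, with the replicate number as a block in an alternative. Same-numbered brain and testis libraries did not deviate together in every pair (r from −0.00263 to 0.242, 4 of 6 over 0.1). In the same check liver and testis pairs were over 0.1 in 6 of 6 (0.118 to 0.228) and liver and brain pairs in 4 of 6 (0.0547 to 0.236). Differently numbered libraries of one genotype had r from −0.169 to 0.0432 in brain and testis. For liver and testis it was −0.172 to 0.0365 and for liver and brain −0.145 to 0.00736, below every same-numbered pair. Same-numbered libraries thus deviated together more, except in brain and testis for WT 2 and WT 3. The labels give no shared origin, and tests without the replicate block do not allow for one. A replicate block left 7 of 7 genes called for WT brain against testis and 0 of 3 for the difference of effects. Read depth limits testis and liver, where the 7 genes had at most 54 reads per library.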
